A study of Mus musculus with 2 samples.

Results

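The genes described here are 35 genes of glycolysis and of the response to low oxygen, chosen by symbol from the 27998 genes of the tables: 21 of glucose uptake, glycolysis and lactate export, and 14 that are known targets or parts of the hypoxia response. All 35 had at least 1 UMI, and 33 passed the filter on low counts, which Pgk1 and Eno2 did not. The cells came from tumours of PyMT mice, C57BL/6N animals in which the polyoma middle T antigen gives rise to mammary tumours, and were selected for CD11c, an integrin subunit (gene Itgax) found on many dendritic cells and macrophages. Both libraries are labelled wild type (WT) and form a single group, called replicate 1 and replicate 2 here, so the genes were compared between the cell classes inside the selection. The labels do not state age, tumour stage or the promoter of the transgene, nor whether each library is a different animal. The p-values measure only how differences between classes varied over these 2 libraries, once the overall difference between libraries is taken out. All 11 classes of the fit share this estimate, and the spread may be technical.

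Glycolysis splits glucose into pyruvate in the cytosol, and its enzymes are among the most abundant proteins of most cells. When oxygen is short, or when macrophages receive inflammatory or lactate signals, the transcription factor HIF-1, a dimer of HIF-1α (Hif1a) and ARNT, escapes degradation by the prolyl hydroxylases (Egln genes) and von Hippel-Lindau protein and binds promoters and enhancers that carry its core element. Its targets include nearly every enzyme of glycolysis, the glucose importer, the lactate exporter and genes of mitophagy, lipid storage and collagen hydroxylation.

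Replicate 1 held 17369071 UMIs (unique molecular identifiers, 1 per captured molecule) and replicate 2 held 13317214, of which 1900 and 1216 cells were kept, with medians of 5670 and 7141.5 UMIs. The cells shared 2 barcodes between libraries. Clusters were built without these 35 genes and called "X-like" from marker genes, and 11 classes held at least 20 cells in each library. Levels are given as CPM (the usual counts-per-million scale, UMIs of the gene over all UMIs of a class in a library), and folds come from an edgeR fit of those class sums with the library as a block, adjusted over 4809 genes that built no cluster, with an adjusted p under 0.05 called a rise or fall. The members gave 0.377% and 0.341% of the free RNA of barcodes of at most 50 UMIs in replicate 1 and replicate 2. In these sums, fewer cells of a kind with the transcript and less transcript per cell cannot be told apart.

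Summed over the 35 genes, Spp1-high macrophage-like cells (cells with Spp1, Gpnmb, Trem2 and Fabp5 among their raised markers) stood highest of the 11 classes. The genes made up 0.618% and 0.826% of their UMIs in replicate 1 and replicate 2, a mean of 0.722% ± 0.147 (SD, n = 2). Epithelial-like cells had 0.517% ± 0.029, cycling cells 0.409% ± 0.047 and monocyte-like cells (Retnla, Ear2, Fn1) 0.399% ± 0.051. C1q-high macrophage-like cells, marked by Vcam1 and Olfml3, had 0.294% and 0.400%. The lowest shares were those of mature DC-like cells at 0.218% and 0.290% and of Folr2 resident macrophage-like cells at 0.217% and 0.252%. Both libraries placed Spp1-high cells first and epithelial-like cells second, and in the order of the means each class from cycling to fibroblast-like cells overlapped the next. The glycolysis genes gave most of these UMIs, with 0.544% ± 0.0995 in Spp1-high cells and 0.298% ± 0.0665 in C1q-high cells, and the hypoxia genes gave 0.178% ± 0.0478 in Spp1-high cells and 0.0493% ± 0.00899 in C1q-high cells. Single cells overlapped between classes: the 10th and 90th percentiles of the share per cell were 0.292% and 1% in the 105 Spp1-high cells of replicate 1, against 0.146% and 0.409% in the 225 C1q-high cells of that library.

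**Figure D1:**
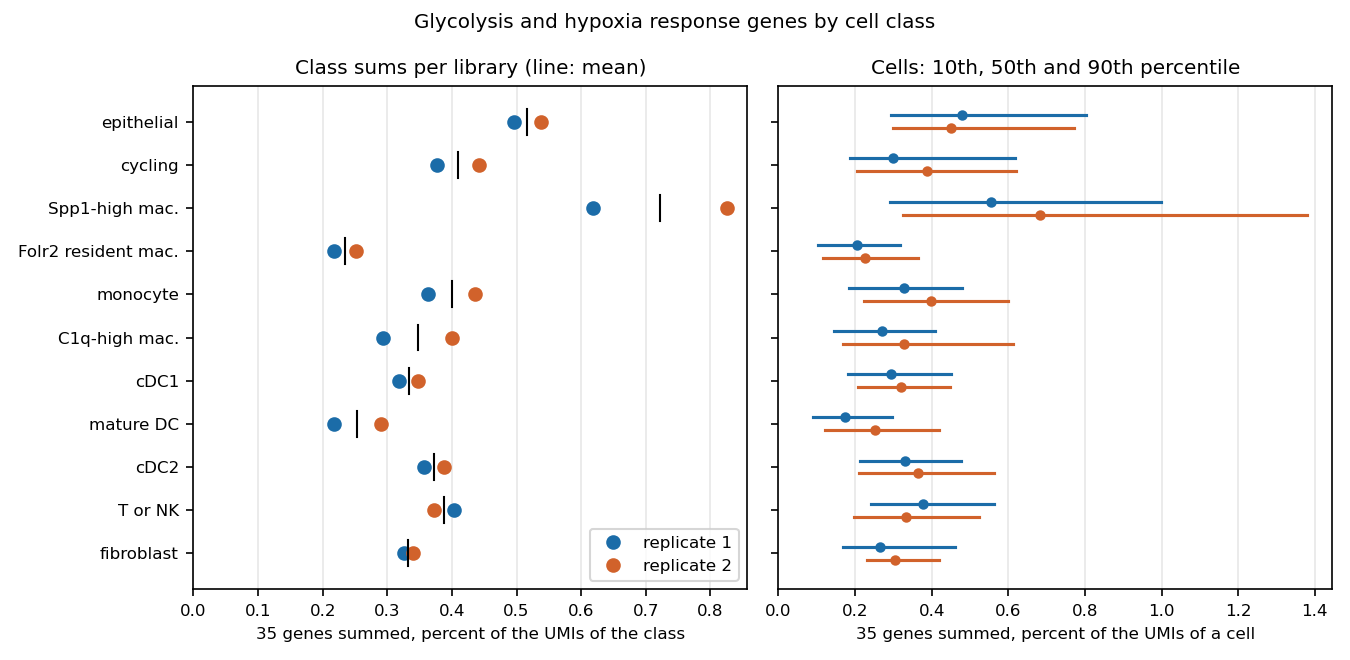
Left, the 35 genes summed as a percent of the UMIs of each class (x axis), with a point for each library and a line at their mean; right, the same percent within single cells, with the median as a point and a line across the 10th to 90th percentile. Spp1-high cells sit rightmost in both libraries at 0.618% and 0.826%, and Folr2 resident and mature DC-like cells leftmost.

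The genes fell into groups by the class with their highest mean level. Spp1-high cells led for 12 of the 35: Aldoa, Tpi1, Gapdh, Pgk1, Pgam1, Eno1, Pkm, Ldha, Slc16a3, Bnip3, P4ha1 and Mif. Epithelial-like cells led for 9, among them the glucose importer Slc2a1, the hexokinase Hk1, the liver-type phosphofructokinase Pfkl, the brain-type aldolase Aldoc and the stress gene Ndrg1. The 46 fibroblast-like cells led for 7, including Hk2, Hif1a and the lactate and pyruvate carrier Slc16a1. T or NK-like cells led for 3, cDC1-like cells for Gpi1 and Pfkp, mature DC-like cells for Pfkfb3 and C1q-high cells for Pfkfb4. These are orders of means: for 17 of the 35 genes the values of the first and second class overlapped, among them Eno1, Ldha, Slc16a3 and P4ha1 of the 12 that Spp1-high cells led, and Ldha was higher in epithelial-like cells in replicate 1. Mature DC-like cells had the lowest level for 12 genes, and Spp1-high cells for 0.

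**Figure D2:**
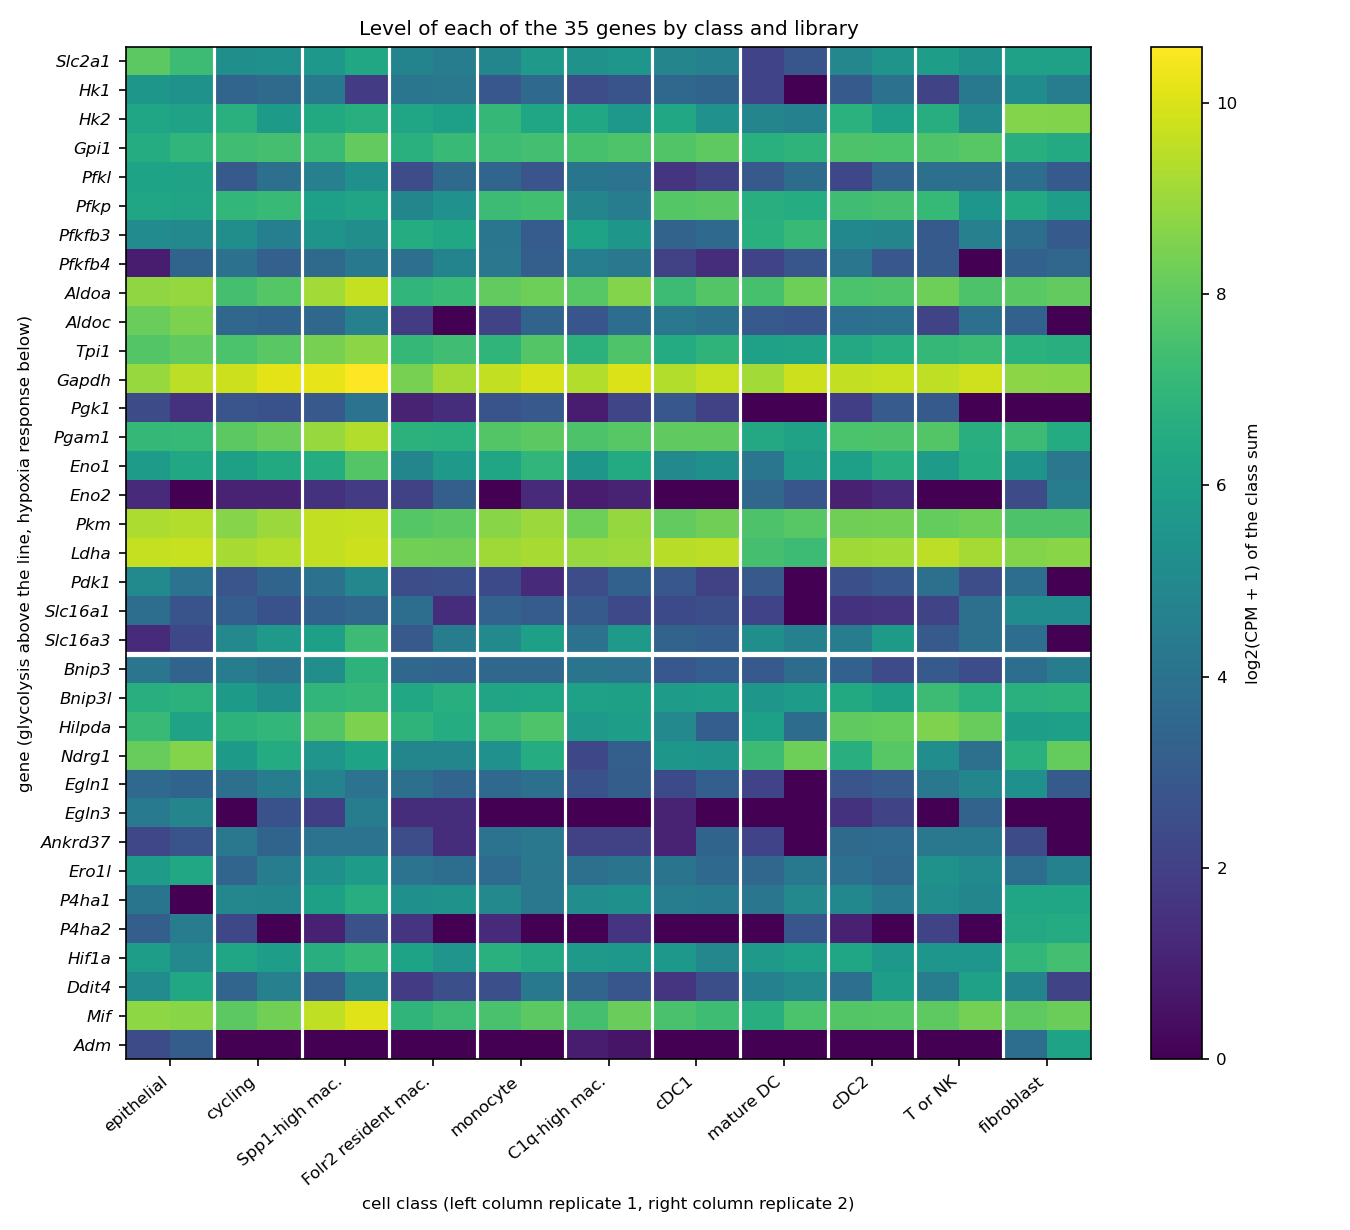
Level of each of the 35 genes (rows) in 11 classes (columns, replicate 1 left and replicate 2 right within each), as log2(CPM + 1), with glycolysis genes above the white line and hypoxia response genes below. The rows of Aldoa, Tpi1, Gapdh, Pgam1, Pkm and Mif are brightest in Spp1-high cells in both libraries, Slc2a1, Aldoc and Ndrg1 in epithelial-like cells, and Hk2 and Adm in fibroblast-like cells.

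Spp1-high macrophage-like cells (142 cells) were compared with C1q-high macrophage-like cells (463 cells). Of 33 genes tested, 17 were higher in Spp1-high cells and 0 lower, where 4.57% of all 4809 genes tested were higher and 5.51% lower. The median log2 fold of the 33 was 0.92, and that of all genes tested -0.05. The 17 were 7 of 19 glycolysis genes and 10 of 14 hypoxia genes, and for each of them both libraries of Spp1-high cells lay above both of C1q-high cells. Whether libraries lay apart, here and below, was not counted over all genes and is no second test of the calls.

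Of the glycolysis genes, those of the steps from aldolase to pyruvate kinase made 5 of the 7 calls. Aldoa, the aldolase that splits fructose bisphosphate, had 548 and 797 CPM in Spp1-high cells of replicate 1 and replicate 2, against 226 and 389 CPM in C1q-high cells, a log2 fold of 0.95 (SE 0.20, adjusted p = 0.000747). Tpi1, which interconverts the triose phosphates, had 345 and 433 CPM in Spp1-high cells, against 109 and 200.4 CPM in C1q-high cells, a log2 fold of 1.17 (SE 0.20, adjusted p = 1.91e-05). The values of both enzymes in C1q-high cells were higher in replicate 2 than in replicate 1, and those of Spp1-high cells were higher still in each. Pgam1, the phosphoglycerate mutase, had 491 and 654 CPM in Spp1-high cells, against 195 and 226 CPM in C1q-high cells, and rose by 1.24 (adjusted p = 1.88e-05). Eno1, enolase 1, had 94.3 and 213 CPM in Spp1-high cells, against 47.0 and 88.6 CPM in C1q-high cells, and rose by 0.92 (adjusted p = 0.00563). Pkm, the pyruvate kinase of most adult tissues, had 777 and 797 CPM in Spp1-high cells, against 302 and 480.1 CPM in C1q-high cells, and rose by 0.85 (adjusted p = 0.000627). The log2 folds of these 5 enzymes lay between 0.85 and 1.24, with no overlap between the classes. Gapdh and Ldha, which with Pkm gave the most UMIs of the 35, missed the threshold. Gapdh had 1157 and 1536 CPM in Spp1-high cells, against 651 and 1052 CPM in C1q-high cells, a log2 fold of 0.50 (SE 0.17, adjusted p = 0.0518). Ldha, which turns pyruvate into lactate, had 783 and 869 CPM in Spp1-high cells, against 500.3 and 519.6 CPM in C1q-high cells, a log2 fold of 0.51 (SE 0.18, adjusted p = 0.0555). Neither pair of groups overlapped, but the intervals of these folds reach close to 0.

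Lactate export and the entry of glucose differed in what passed. Slc16a3, which encodes the exporter MCT4, had 61.2 and 153 CPM in Spp1-high cells, against 14.6 and 52.3 CPM in C1q-high cells, and rose by 1.46 (SE 0.30, adjusted p = 0.000376). Its levels were higher in replicate 2 in both classes. Slc2a1, the importer GLUT1, had 48.6 and 80.4 CPM in Spp1-high cells, against 40.9 and 45.6 CPM in C1q-high cells, and did not pass (log2 fold 0.29, SE 0.30, adjusted p = 0.664). Hk2, the inducible hexokinase, had 85.5 and 101 CPM in Spp1-high cells, against 78.6 and 49.2 CPM in C1q-high cells (log2 fold 0.31, SE 0.26, adjusted p = 0.576), and Gpi1, the glucose phosphate isomerase, 148 and 265 CPM in Spp1-high cells, against 183 and 204 CPM in C1q-high cells (log2 fold -0.16, SE 0.20, adjusted p = 0.748). The CPM of Gpi1 overlapped between the classes and those of Hk2 did not. After scaling, the log2 folds of Hk2 were -0.09 in replicate 1 and 0.86 in replicate 2 (prior count of 2). Of the phosphofructokinases, the platelet-type Pfkp rose, with 62.2 and 72.7 CPM in Spp1-high cells, against 27.0 and 21.0 CPM in C1q-high cells (log2 fold 1.29, SE 0.30, adjusted p = 0.00185), while Pfkl did not pass (log2 fold 0.71, SE 0.38). The genes of the enzymes that set its activator, Pfkfb3 at -0.71 (SE 0.28) and Pfkfb4 at -0.78 (SE 0.49), had negative log2 folds that did not pass. Hk1, Aldoc, Slc16a1 and Pdk1, a kinase that inhibits pyruvate dehydrogenase, did not pass either, with log2 folds of 1.20, 0.39, 0.49 and 1.22. The libraries of Hk1 went opposite ways, with log2 folds of 1.42 in replicate 1 and -0.80 in replicate 2 (prior count of 2). Pgk1, the phosphoglycerate kinase, gave 91 UMIs over all 3116 cells, against 3702 for Tpi1 and 4763 for Pgam1, and Eno2 gave 38, so that neither was tested.

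In the hypoxia response, Mif, which encodes macrophage migration inhibitory factor (chr10:75859353-75860240 in GRCm38), carried the most UMIs. It had 760.0 and 1072 CPM in Spp1-high cells, against 173 and 284 CPM in C1q-high cells, and rose by 1.82 (SE 0.20, adjusted p = 1.84e-09). After every cell was thinned to 1904 UMIs, a Mif UMI was found in 66.7% and 81.1% of Spp1-high cells of replicate 1 and replicate 2, against 25.8% and 34.5% of C1q-high cells, and without thinning in 90.5% and 94.6% of Spp1-high cells, against 50.2% and 70.6% of C1q-high cells. The order of the classes was the same in both libraries, and these shares were not tested. Hilpda, whose product blocks the lipase of lipid droplets (chr6:29272488-29275446), had 217 and 361 CPM in Spp1-high cells, against 50.9 and 60.5 CPM in C1q-high cells, and rose by 2.13 (SE 0.29, adjusted p = 2.81e-07). At equal depth a Hilpda UMI was found in 25.7% and 29.7% of Spp1-high cells of replicate 1 and replicate 2, against 6.67% and 10.5% of C1q-high cells, and without thinning in 49.5% and 62.2% of Spp1-high cells, against 21.8% and 27.3% of C1q-high cells. No class here is known to lack either gene, so no background share stands beside these.

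Genes of mitophagy rose together with them. Bnip3, a receptor that marks mitochondria for autophagy (chr7:138890836-138909519), had 36.9 and 114 CPM in Spp1-high cells, against 16.2 and 15.4 CPM in C1q-high cells, a log2 fold of 1.88 (SE 0.36, adjusted p = 0.000154). The libraries differed in size, with log2 folds of 0.89 in replicate 1 and 2.58 in replicate 2 (prior count of 2). Its relative Bnip3l had 122 and 129.7 CPM in Spp1-high cells, against 64.8 and 64.6 CPM in C1q-high cells, and rose by 0.76 (adjusted p = 0.0179). Ndrg1, a stress-induced gene (chr15:66929318-66969640), had 44.7 and 70.1 CPM in Spp1-high cells, against 3.85 and 8.2 CPM in C1q-high cells, and rose by 3.04 (SE 0.42, adjusted p = 4.26e-07). C1q-high cells had the lowest Ndrg1 level of the 11 classes.

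The oxygen sensors and the factor itself also moved. Hif1a had 101 and 129.7 CPM in Spp1-high cells, against 51.6 and 49.7 CPM in C1q-high cells, and rose by 0.93 (adjusted p = 0.0125). Egln1, the main prolyl hydroxylase, had 26.2 and 15.6 CPM in Spp1-high cells, against 5.40 and 7.69 CPM in C1q-high cells, and rose by 1.56 (adjusted p = 0.0241). Egln3, a hydroxylase that is itself a HIF target, had 2.92 and 20.8 CPM, from 11 UMIs, and 0 UMIs in C1q-high cells. Against a floor of 3 counts over the C1q-high class, Egln3 was at least 8.42-fold higher. Ankrd37, an ankyrin-repeat gene known as a HIF-1 target, had 15.5 and 15.6 CPM in Spp1-high cells, against 3.08 and 3.07 CPM in C1q-high cells (log2 fold 2.10, SE 0.61, adjusted p = 0.0174), and Ero1l, the oxidase of protein folding in the endoplasmic reticulum, 38.9 and 57.1 CPM in Spp1-high cells, against 13.9 and 15.9 CPM in C1q-high cells (log2 fold 1.45, SE 0.33, adjusted p = 0.00163). The last 4 rested on low counts, and all 5 kept the groups apart. The collagen prolyl hydroxylase P4ha1 (log2 fold 0.82, SE 0.31) and the mTOR inhibitor Ddit4 (log2 fold 0.92, SE 0.57), whose libraries went opposite ways, did not pass, and P4ha2 and Adm had at most 4 UMIs in either class.

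**Figure D3:**
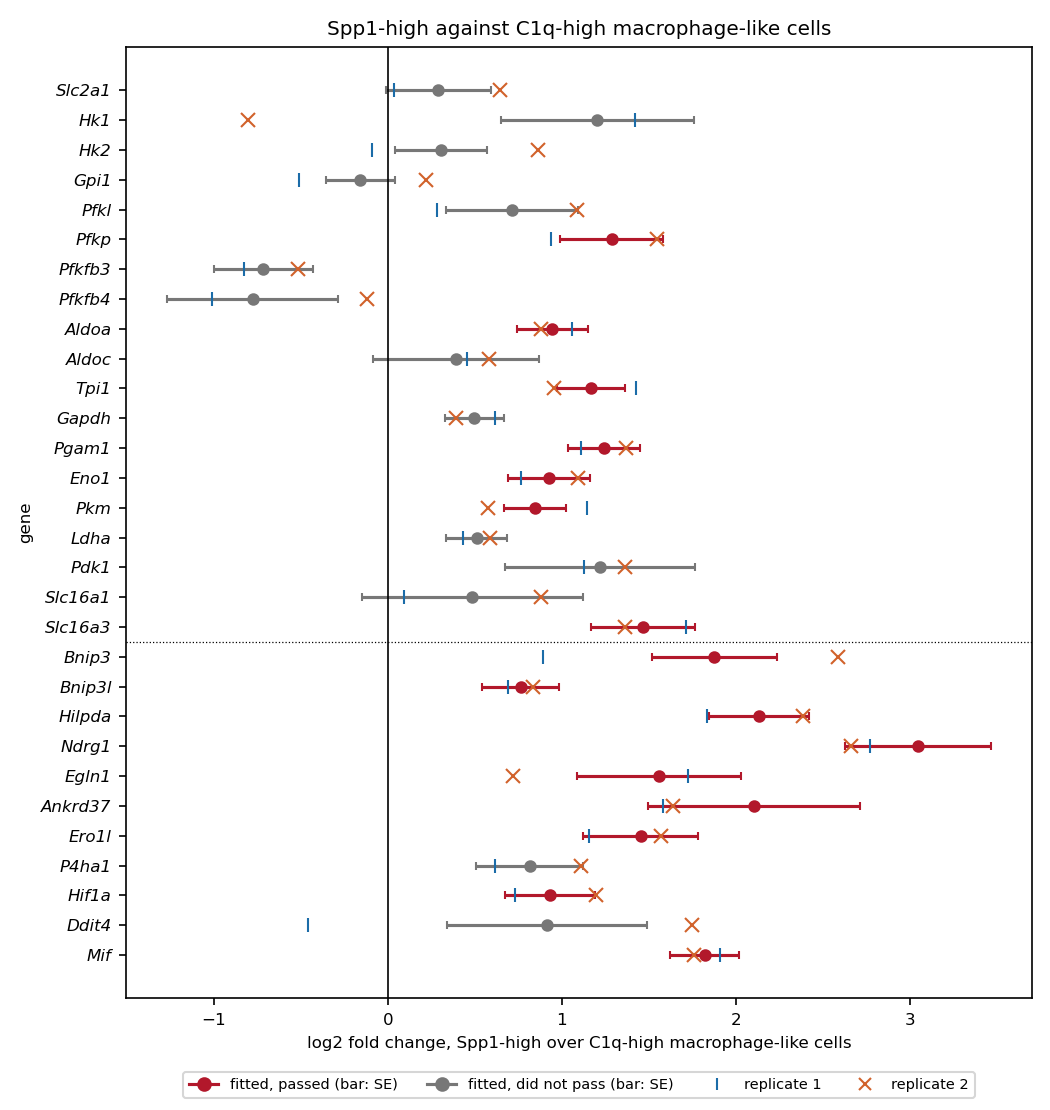
Log2 fold change (x axis) of Spp1-high over C1q-high macrophage-like cells for each gene with more than 3 UMIs in both classes, with the fitted value and its SE as a point and bar (red where adjusted p was under 0.05) and the fold within each library as a tick or cross. Points of the hypoxia genes, below the dotted line, lie furthest right, led by Ndrg1 at 3.04, and Pfkfb3 and Pfkfb4 lie left of 0.

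Several values moved with this comparison. Spp1-high cells had medians of 8977 and 8596 UMIs, against 5485 and 7667 in C1q-high cells, and estimated free RNA shares of 1.53% and 1.07%, against 1.35% and 0.909% in C1q-high cells. Shares of cells at equal depth stand above for Mif and Hilpda, and the part of depth in the other calls was not tested. The 10 epithelial markers summed to 354 and 195 CPM in Spp1-high cells, against 314 and 165 CPM in C1q-high cells and 43035 and 47088 CPM in epithelial-like cells, with 0 and 4 of the 10 at 0 in Spp1-high cells. The 10 markers of monocyte-like cells summed to 1516 and 1414 CPM in Spp1-high cells, against 160 and 184 CPM in C1q-high cells, with 1 and 2 of them at 0, and their part in the result was not tested. The 10 fibroblast markers summed to 23.3 and 23.4 CPM in Spp1-high cells, against 18.5 and 17.4 CPM in C1q-high cells. With the estimated free RNA subtracted, 17 genes were higher and 0 lower. Without the library block, 13 of the 17 passed and Eno1, Slc16a3, Egln1 and Hif1a did not, and at clustering resolution 0.5 Ndrg1 had a log2 fold of 0.84 and Pfkp of 0.44, neither past the threshold. The call of Egln1 was lost in 6 of 12 alternatives and that of Hif1a in 3. Among all genes called, 45.4% were higher in Spp1-high cells, and 65.7% with total UMIs in place of TMM scaling. Under total UMIs 20 of the 33 genes rose and 0 fell, where 331 of all 4809 genes tested rose and 173 fell. The share of all calls that were higher was 56.2% with upper-quartile scaling and 58.4% with DESeq2.

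Of 25 tested hypoxia-induced genes outside the 35, 6 rose in Spp1-high cells and 0 fell. Arg1, the arginase of alternatively activated and hypoxic macrophages, had 159 and 1059 CPM in Spp1-high cells, against 0 and 1.02 CPM over 2 UMIs in C1q-high cells, a pooled ratio of 657 (exact 95% counting interval 181 to 5438). Vegfa, the angiogenic growth factor, had 149.7 and 176 CPM in Spp1-high cells, against 50.9 and 39.5 CPM in C1q-high cells (log2 fold 1.70, SE 0.27, adjusted p = 6.4e-06). The glycogen phosphorylase Pygl had 17.5 and 59.7 CPM in Spp1-high cells, against 1.54 and 3.07 CPM in C1q-high cells (log2 fold 3.53, SE 0.57, adjusted p = 1.04e-05). Of 15 other glucose and pyruvate genes 2 rose, the transporter Slc2a6 (1.24) and the hexokinase Hk3 (1.19), and 0 fell. Of 9 genes of oxygen sensing, only Epas1, which encodes HIF-2α, passed, with 15 UMIs in Spp1-high cells against 2 in C1q-high cells and a pooled ratio of 17.2 (4.01 to 155). Of 7 pentose phosphate genes tested, 0 rose and 2 fell, Taldo1 by 1.15 and Tkt by 0.78 on the log2 scale, and of 16 genes of the citric acid cycle 0 rose and 1 fell, Idh3g, by 0.98. Beside these lists, 4.57% of all genes tested were higher and 5.51% lower. The single calls among the oxygen-sensing and citric acid cycle genes are therefore no result about those lists.

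The core of the HIF-binding element is ACGTG, read as CACGT on the other strand. RefSeq promoter windows of GRCm38.p6, 250 bases before to 50 after each start, were at hand for 33 of the 35 genes, Ero1l under its current symbol Ero1a, and not for Ndrg1 and Bnip3l. The core stood in at least 1 window of 24 of the 33 genes (72.7%), against 21.8% of all 27025 genes with a window of the same length. By window, it stood in 59.1% of the 44 windows of these genes and in 19.6% of all 32851. The genes were not matched for base composition, expression or number of windows, and some were chosen as known targets of the hypoxia response. The cause of the difference was not tested. It stood in 12 of the 15 with a window that rose in Spp1-high cells and in 12 of the other 18. The stretches below show the core in 7 of the genes that rose, of mitophagy, lipid storage, oxygen sensing, lactate export and glycolysis, with up to 20 bases on either side of the core nearest before the start and none past the start, 5′ to 3′ on the strand of the gene, with the core in capitals. They lie at chr7:138909589-138909633 on the minus strand for Bnip3, chr6:29272563-29272607 on the plus strand for Hilpda, chr8:124949298-124949342 and chr12:54204079-54204123 on the minus strand for Egln1 and Egln3, chr8:45999851-45999876 on the minus strand for Ankrd37, chr11:120949033-120949066 on the plus strand for Slc16a3 and chr19:41911737-41911781 on the plus strand for Pgam1.
Bnip3: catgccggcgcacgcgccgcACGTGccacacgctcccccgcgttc
Hilpda: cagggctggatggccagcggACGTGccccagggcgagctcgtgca
Egln1: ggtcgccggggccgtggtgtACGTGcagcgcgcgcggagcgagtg
Egln3: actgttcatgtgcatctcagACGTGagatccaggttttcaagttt
Ankrd37: gcacatgtcagtgtttgggtACGTGa
Slc16a3: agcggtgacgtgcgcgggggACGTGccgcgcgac
Pgam1: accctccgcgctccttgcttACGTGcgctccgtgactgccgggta
Those of Hilpda, Egln1, Ankrd37 and Slc16a3 lie at least in part inside the GENCODE span of the gene, which starts further upstream, and those of Bnip3, Egln3 and Pgam1 lie before it. In these 7 the core begins 107, 43, 68, 229, 6, 14 and 114 bases before the start, in the order shown. Only that core is in capitals. The stretch of Slc16a3 holds a further match upstream in small letters, and in Bnip3 the letter before the core adds an overlapping match of the other strand. A match of 5 letters is a description of the sequence and does not say that the factor binds there.

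Folr2 resident macrophage-like cells, marked by Folr2, Pf4, Cbr2 and Cd209f, stood at the other end. Against C1q-high cells 11 of 33 genes were lower and 2 higher, where 6.43% of all genes tested were lower and 6.86% higher, and the median log2 fold was -0.32, against -0.003 for all genes. Glycolysis held 10 of the 11 that fell. Gapdh had 344 and 567 CPM in Folr2 resident cells, against 651 and 1052 CPM in C1q-high cells (log2 fold -1.02, SE 0.17, adjusted p = 1.74e-05). Aldoa had 125 and 139 CPM in Folr2 resident cells, against 226 and 389 CPM in C1q-high cells (log2 fold -1.29, SE 0.21, adjusted p = 1.33e-05), and Ldha 321 and 309.9 CPM in Folr2 resident cells, against 500.3 and 519.6 CPM in C1q-high cells (log2 fold -0.79, SE 0.18, adjusted p = 0.00116). The resident cells lay below the C1q-high cells in both libraries for all 3. Pgam1, Pkm, Eno1, Gpi1, Pfkl, Aldoc and Slc16a3 also fell, by 0.77 to 2.28 on the log2 scale, with Eno1 and Slc16a3 overlapping between the classes. Mif had 119 and 154 CPM in Folr2 resident cells, against 173 and 284 CPM in C1q-high cells, and fell by 0.84 (adjusted p = 0.00325).

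Hk1 and Ndrg1 were the genes higher in Folr2 resident cells. Hk1, the housekeeping hexokinase, had 16.8 and 18.0 CPM in Folr2 resident cells, against 4.63 and 5.64 CPM in C1q-high cells (log2 fold 1.62, SE 0.48, adjusted p = 0.0151). Ndrg1 had 28.4 and 27.9 CPM in Folr2 resident cells, against 3.85 and 8.2 CPM in C1q-high cells (log2 fold 2.26, SE 0.43, adjusted p = 0.000104). Both calls depended on the cells in the classes: that of Hk1 was lost in 4 of 12 alternatives and that of Ndrg1 in 3, with a log2 fold of 0.11 and an adjusted p of 0.904 at resolution 0.5. Tpi1 and Hif1a did not pass, at -0.16 (SE 0.20) and 0.11 (SE 0.26). Of 7 pentose phosphate genes 3 fell, led by Tkt at -1.40 and Taldo1 at -1.37. Of 25 other hypoxia-induced genes 2 rose, Hmox1, the heme oxygenase, at 1.81 and the transferrin receptor Tfrc at 3.04, and 2 fell. Those 2 counts lie near the shares of all genes tested, 6.86% higher and 6.43% lower. The call of Pfkl was lost in 6 of 12 alternatives, and the count of genes lower depended on the clusters: at resolution 2.0, 3 genes were lower, and under the other 11 alternatives 8 to 12. Of all genes called, 51.6% were higher in Folr2 resident cells, and 62.5% with total UMIs in place of TMM scaling. The markers of monocyte-like cells summed to 5899 and 1209 CPM in Folr2 resident cells, against 160 and 184 CPM in C1q-high cells, with 2 and 3 of the 10 at 0 in Folr2 resident cells. The markers of cDC2-like cells summed to 942 and 746 CPM in Folr2 resident cells, against 136 and 118 CPM in C1q-high cells, with 2 and 1 at 0 in Folr2 resident cells. Folr2 resident cells had medians of 4376 and 5169 UMIs, against 5485 and 7667 in C1q-high cells, and the part of these values in the result was not tested. Spp1-high, Folr2 resident and monocyte-like cells were all set against the same C1q-high sums, so these comparisons share their controls.

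Monocyte-like cells, with Retnla, Ear2, Fn1 and Thbs1 raised, had 5 of 33 genes higher than C1q-high cells and 1 lower, where 9.84% of all genes tested were higher and 13.2% lower. The median of the 33 was 0.01 and that of all genes -0.08, so the class differed in single genes and not in the bulk of the list. Pfkp had 153 and 166 CPM in monocyte-like cells, against 27.0 and 21.0 CPM in C1q-high cells (log2 fold 2.65, SE 0.25, adjusted p = 8.66e-12). Pfkfb3, the bifunctional enzyme that raises the activator of phosphofructokinase, had 16.9 and 7.46 CPM in monocyte-like cells, against 68.6 and 47.7 CPM in C1q-high cells (log2 fold -2.32, SE 0.30, adjusted p = 2.85e-08). These 2 genes of one step thus went opposite ways, with both libraries apart. Ndrg1 rose by 3.28 with 39.4 and 93.3 CPM, Hilpda by 1.59 with 156 and 205 CPM, Ankrd37 by 2.30 and Hif1a by 0.77. Mif, at 188 and 243 CPM, and Bnip3, at 10.6 and 10.5 CPM, did not pass. At resolution 2.0, 8 genes were higher, and at resolution 0.5 the log2 fold of Ndrg1 was 0.92 (adjusted p = 0.0168).

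Among dendritic cells, cDC1-like cells (Xcr1, Clec9a) were set against cDC2-like cells (Cd209a, Clec10a). Of the 33 genes 6 were lower and 0 higher, where 6.88% of all genes tested were lower and 4.78% higher. Without adjustment, 9 of the 33 had p under 0.05, and with DESeq2 1 was higher. Hilpda had 30.5 and 8.03 CPM in cDC1-like cells, against 255 and 271 CPM in cDC2-like cells (log2 fold -3.69, SE 0.35, adjusted p = 3.22e-11). Ddit4 had 2.11 and 4.82 CPM in cDC1-like cells, against 13.8 and 57.7 CPM in cDC2-like cells (log2 fold -3.37, SE 0.61), and Slc16a3 9.48 and 8.03 CPM in cDC1-like cells, against 20.7 and 53.4 CPM in cDC2-like cells (log2 fold -1.98, SE 0.45). For all 3 the cDC1-like libraries lay below both cDC2-like ones. Ndrg1, Pfkfb3 and Eno1 also fell, by 1.76, 1.55 and 1.22 on the log2 scale. The enzymes Ldha, at 695 and 747 CPM in cDC1-like cells, against 539.7 and 558 CPM in cDC2-like cells, and Gapdh, at 660.2 and 840.4 CPM in cDC1-like cells, against 780.0 and 829 CPM in cDC2-like cells, did not pass. The 8 neutrophil markers summed to 30.5 and 49.8 CPM in cDC1-like cells, against 512 and 1076 CPM in cDC2-like cells, with 6 and 4 of them at 0 in both classes. Il1r2, a gene of this list, was also among the 10 most raised cluster-building genes of the cDC2-like cluster. The sum therefore cannot tell neutrophil RNA from a gene of cDC2-like cells, and the part of these markers in the falls was not tested. The call of Pfkfb3 was lost in 3 of 12 alternatives.

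Mature DC-like cells (Ccr7, Fscn1, Ccl22), which are dendritic cells that have taken up a migratory programme, had 10 of 33 genes lower than cDC2-like cells and 1 higher, where 7.19% of all genes tested were lower and 5.36% higher. The median log2 fold was -0.64, against -0.20 for all genes, and 8 of the 10 belonged to glycolysis. Ldha had 174 and 153 CPM in mature DC-like cells, against 539.7 and 558 CPM in cDC2-like cells (log2 fold -1.81, SE 0.22, adjusted p = 1.27e-08). Slc2a1 had 2 UMIs over both libraries of mature DC-like cells, against 91 in cDC2-like cells, a pooled ratio of 0.116 (exact 95% counting interval 0.0139 to 0.433). Both were lower in each library. Hk2 had 27.3 and 24.4 CPM in mature DC-like cells, against 106 and 62.0 CPM in cDC2-like cells (log2 fold -1.78, SE 0.43), Pgam1 81.8 and 67.2 CPM in mature DC-like cells, against 189 and 199 CPM in cDC2-like cells (log2 fold -1.43, SE 0.30) and Hilpda 61.4 and 12.2 CPM in mature DC-like cells, against 255 and 271 CPM in cDC2-like cells (log2 fold -2.70, SE 0.41). Eno1, Gpi1, Pfkp, Mif and Pkm fell by 0.67 to 1.38 on the log2 scale. Pfkfb3 was the exception, with 106 and 141 CPM in mature DC-like cells, against 29.5 and 27.1 CPM in cDC2-like cells (log2 fold 1.96, SE 0.33, adjusted p = 1.29e-05). Outside the 35, the muscle enolase Eno3 rose by 5.07 with 283 and 391 CPM in mature DC-like cells, against 8.86 and 9.26 CPM in cDC2-like cells, and the fumarase Fh1 fell by 2.97. Aldoa and Gapdh did not pass, at 0.15 (SE 0.25) and -0.31 (SE 0.18). Without the library block 6 genes were lower and with DESeq2 4, where 60.6% of all calls were higher in place of 42.7%. The call of Pfkp was lost in 8 of 12 alternatives, that of Mif in 6 and that of Pkm in 5. The neutrophil markers, which include the Il1r2 raised in cDC2-like cells, summed to 64.8 and 238 CPM in mature DC-like cells, against 512 and 1076 CPM in cDC2-like cells, and their part was not tested. Mature DC-like and cDC1-like cells share the cDC2-like sums as controls.

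Cycling cells were set against the mean of 7 myeloid classes. Of the 33 genes 0 were higher and 2 lower, where 6.51% of all genes tested were higher and 2.12% lower. Without adjustment 7 of the 33 had p under 0.05, and the count of genes higher was 0 with DESeq2 and 5 with total UMIs in place of TMM scaling. With total UMIs, 608 of all 4809 genes tested were higher and 35 lower. Bnip3l had 53.6 and 37.5 CPM in cycling cells and 47.7 to 129.7 CPM, median 67.9, in the 14 myeloid sums (log2 fold -0.91, SE 0.20, adjusted p = 0.00103). Aldoa had 178 and 224 CPM in cycling cells and 125 to 797 CPM, median 219.8, in the myeloid sums (log2 fold -0.56, SE 0.17, adjusted p = 0.0233). The call of Aldoa was lost in 5 of 12 alternatives, and with total UMIs 94.6% of all calls were higher in place of 75.4%. Gapdh, at 879 and 1127 CPM, and Tpi1, at 192 and 231 CPM, did not pass. A cluster of 49 of the 184 cycling cells also had 8 cDC1 markers raised.

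Epithelial-like cells (Epcam, Krt8, Krt18) were set against the same 7 classes. Of the 33 genes 16 were higher and 9 lower, where 33.3% of all genes tested were higher and 19.1% lower, so that much of the transcriptome differed. The median mitochondrial share of UMIs was 5.01% and 6.03% in epithelial-like cells and 1.68% to 2.85% in the 14 myeloid sums, and its part in the result was not tested. Aldoc, the brain-type aldolase, had 288 and 359 CPM in epithelial-like cells and 0 to 23.4 CPM, median 10.2, in the 14 myeloid sums (log2 fold 4.80, SE 0.19, adjusted p = 2.01e-26). Slc2a1 had 242 and 152 CPM in epithelial-like cells and 3.41 to 80.4 CPM, median 28.4, in the myeloid sums (log2 fold 2.5, SE 0.20, adjusted p = 3.23e-15). Pfkl had 70.4 and 67.5 CPM in epithelial-like cells and 2.11 to 38.9 CPM, median 9.91, in the myeloid sums (log2 fold 2.58, SE 0.25, adjusted p = 2.14e-12). In all 3, as in Hk1, P4ha2 and Adm, both epithelial-like libraries lay above all 14 myeloid sums. The share of all genes that did so was not counted. Adm, the gene of the vasodilator peptide adrenomedullin, rested on 10 UMIs in epithelial-like cells against 2 in the myeloid classes (pooled ratio 38.5, exact 95% counting interval 8.21 to 361). Its call was lost with DESeq2 (adjusted p = 0.552).

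Of the lactate carriers, Slc16a3 fell and Slc16a1 did not pass (log2 fold 0.65, SE 0.48). Slc16a3 had 1.48 and 3.86 CPM in epithelial-like cells and 6.84 to 153 CPM, median 28.1, in the myeloid sums (log2 fold -3.91, SE 0.52, adjusted p = 1.48e-08), and both libraries lay below all 14. P4ha1 (log2 fold -1.86, SE 0.36), Pfkfb4 (log2 fold -1.90, SE 0.63), Gpi1 (log2 fold -1.04, SE 0.17), Pgam1 (log2 fold -0.97, SE 0.18), Hif1a (log2 fold -0.79, SE 0.22) and Gapdh (log2 fold -0.78, SE 0.14) fell as well, as did Pfkp and Pfkfb3, whose call was lost in 7 of 12 alternatives. Gapdh had 498 and 737 CPM in epithelial-like cells and 344 to 1536 CPM, median 808, in the myeloid sums. Ndrg1 (log2 fold 2.26, SE 0.17), Ddit4 (log2 fold 1.87, SE 0.30), Ero1l (log2 fold 1.59, SE 0.22), Pdk1 (log2 fold 1.69, SE 0.38) and Egln3, at 20 and 27.0 CPM, rose. Ldha, Pkm, Aldoa, Tpi1 and Mif rose by 0.38 to 0.52 on the log2 scale, where the median over all genes was 0.25, and the call of Tpi1 was lost in 6 of 12 alternatives. Hilpda and Bnip3 did not pass, at -0.21 (SE 0.23) and -0.11 (SE 0.39). Of 25 other hypoxia-induced genes 11 rose and 3 fell, where 33.3% of all genes tested were higher and 19.1% lower. Stc2 had 193 UMIs in epithelial-like cells against 3 in the myeloid classes, and Car12 rose by 4.22 on the log2 scale. Ldhb, the subunit that favours pyruvate, rose by 4.11. With total UMIs in place of TMM scaling the median of all genes moved to 0.64, and 79.2% of all calls in place of 63.6% were higher. Under total UMIs 17 of the 33 genes rose and 6 fell, where 2288 of all 4809 genes tested rose and 600 fell. The 17 that rose thus lay near the share of all genes.

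**Figure D4:**
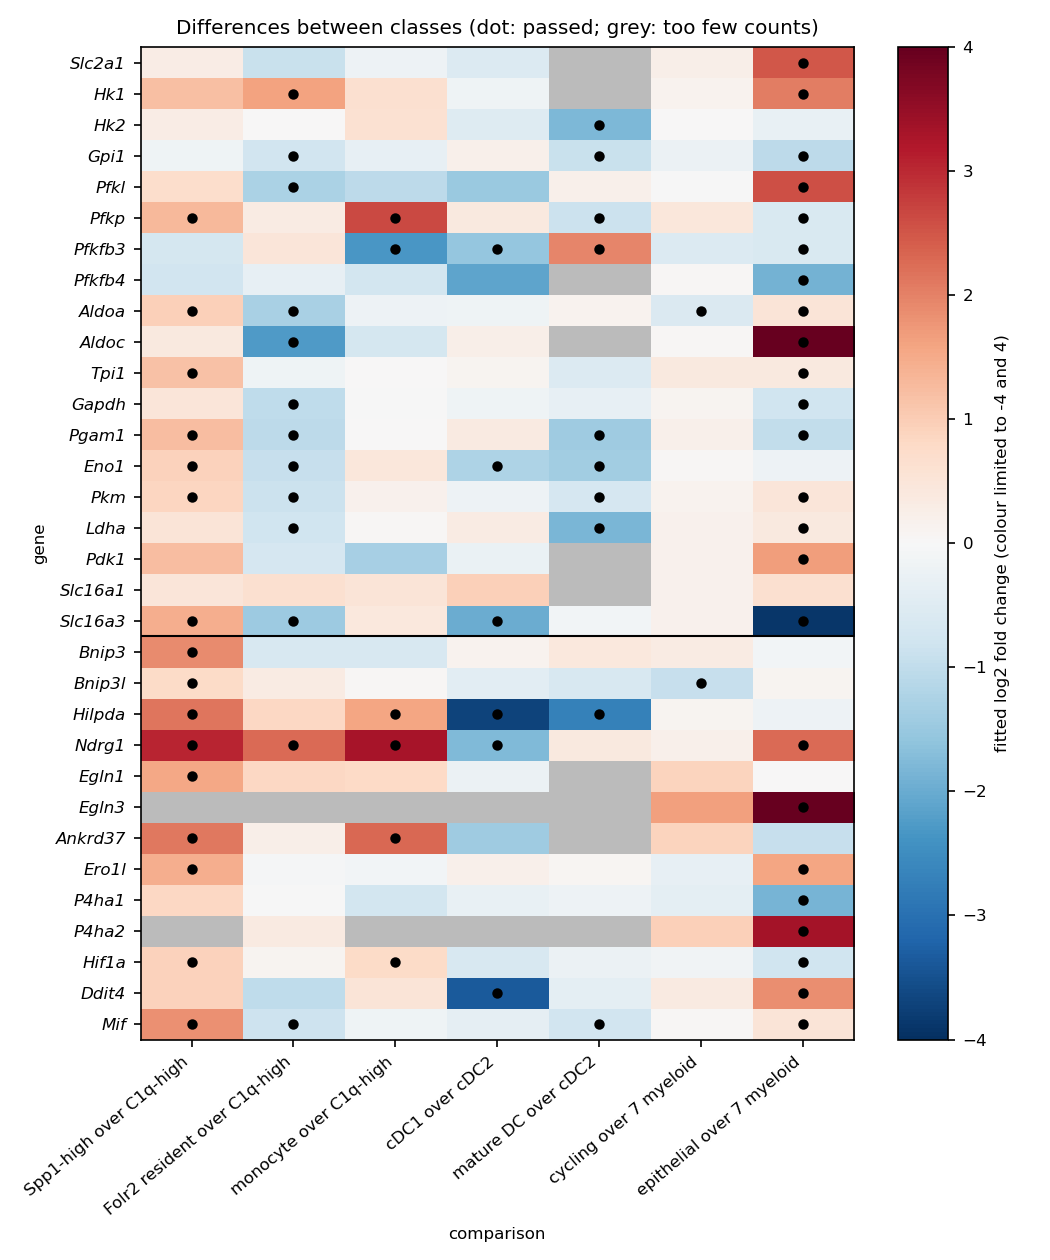
Fitted log2 fold change (colour, limited to -4 and 4) of 32 of the tested genes (rows; Adm left out) in 7 comparisons of classes (columns), with a dot where adjusted p was under 0.05 and grey where a class had at most 3 UMIs of the gene. Grey cells carry no dot, so that the Spp1-high column has 16 dots, all on red, and the mature DC column 10, of which 9 are on blue, while the Folr2 resident column has 13, of which 11 are on blue.

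Fibroblast-like cells, at 23 cells in each library, were outside these comparisons. Hk2 had 396 and 378 CPM there, above every other class in the fit, and Hif1a 126 and 169.7 CPM. P4ha2, the second collagen prolyl hydroxylase, had 82.7 and 90.1 CPM, against at most 21.2 CPM in any sum of the other 10 classes. T or NK-like cells had 372 and 279 CPM of Hilpda and 152 and 107 CPM of Bnip3l, both overlapping Spp1-high cells, which had 217 and 361 CPM of Hilpda and 122 and 129.7 CPM of Bnip3l.

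Some of the 35 have related genes or copies that could affect how their reads are counted. Of those looked for by symbol, Eno1b had 55 and 45 UMIs in replicate 1 and replicate 2, Aldoart1 1 and 2, and Gapdhs and Pgk2 0. Eno1 itself had 1578 over both libraries. Pseudogene copies of Gapdh and Pgk1 were not looked for. Whether reads of Eno1 were lost to or split with Eno1b was not tested, nor was the cause of the low Pgk1 count.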

How the data were processed

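Counts of UMIs per gene and barcode (10x Genomics chemistry, Cell Ranger 2.2.0 and mm10, per the submitters' processing notes) were deposited by the authors as unfiltered matrices of 27998 genes for 2 libraries. Barcodes past the Cell Ranger 2 rule (the 99th percentile of the top 3000 divided by 10, that is 2111.68 and 1904.91 UMIs) numbered 2013 and 1318, of which 83 and 90 with over 10% mitochondrial UMIs or under 200 genes and 30 and 12 with the highest Scrublet scores (0.8% per 1000 cells) were removed. Of all UMIs, 73.0% and 71.8% lay in called barcodes.

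The members, all fixed lists and a random set of other genes (13973 in all) were kept out of clustering, which used scanpy 1.11.5 on the other 14025 (2000 variable genes, 30 components, 20 neighbours, Leiden resolution 1, no integration). A cluster took a class name where at least 3 of its markers were raised (log2 fold of 1 or more, in 20% or more of its cells). Cells in clusters without such a name, 218 and 164, and classes under 20 cells in either library stayed out of the fit, so that the planned comparison of Ccr2 Fcgr4 Ms4a4c macrophage-like cells (83 and 9 cells) was not made. Counts were summed per class and library into 22 sums with 10 residual degrees of freedom and fitted with edgeR 4.0.16 (TMM, filterByExpr, quasi-likelihood test, library as a block because classes of 1 library come from the same capture), and p-values were adjusted by Benjamini-Hochberg over the 4809 held-out genes past the filter. The method was tested on counts simulated for the Spp1-high against C1q-high comparison, with changes put into well-counted genes. Of these, 51% of the 2-fold and 91% of the 4-fold changes were called, and 2.74% of calls were false. A gene that did not pass may thus still differ. The simulation used 1 mean per gene over all classes and 1 spread for all genes. It held no clustering step and no difference between libraries beyond total UMIs. Its share of false calls therefore cannot be taken as that of the comparisons here.

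Intervals cover counting error only. Gene spans are those of GENCODE M21 on GRCm38. Of the 35 genes, values are given for those called or among the 10 most abundant, and for other lists up to 3 called genes with the largest folds of 1 sign in both libraries. The members and lists were chosen with earlier results of these data known. Alternatives were clustering settings, scaling, DESeq2 1.42.0, filters, the library block, doublets, free RNA and leaving out a library.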

Additional observations from a re-analysis of the deposited data

How the results depend on the processing

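Over 12 alternatives of the fit, 80 calls of members over the 7 comparisons were followed, and 0 reversed. Calls held in every alternative numbered 9 of 17 for Spp1-high cells, 3 of 13 for Folr2 resident cells, 5 of 6 for monocyte-like cells, 3 of 6 for cDC1-like cells, 5 of 11 for mature DC-like cells, 1 of 2 for cycling cells and 16 of 25 for epithelial-like cells. The number higher in Spp1-high cells ran between 13 and 20, with 0 lower in each alternative. Without the library block, which pairs the class sums of a library, 13 were higher there, 2 higher and 8 lower in Folr2 resident cells, 4 and 1 in monocyte-like cells, 0 and 4 in cDC1-like cells, 1 and 6 in mature DC-like cells, 0 and 1 in cycling cells and 15 and 8 in epithelial-like cells. For the other changes below the cause was not tested. In Folr2 resident cells 1 gene was higher at resolution 0.5 and with barcodes of at least 1000 UMIs, and 3 were lower at resolution 2.0. At that resolution 8 were higher in monocyte-like cells and 2 in mature DC-like cells. With DESeq2, 1 was higher in cDC1-like cells and 4 lower in mature DC-like cells. In cycling cells 1 was lower with total UMIs in place of TMM, with DESeq2, with no filter on low counts and at resolution 0.5; the number higher was 5 with total UMIs, 2 with no filter and with a second split of the genes, 3 when each cell was classed by its own marker scores and 1 with barcodes of at least 1000 UMIs.

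Without Gapdh, Ldha and Pkm the genes gave 0.426% of UMIs in Spp1-high cells, 0.309% in epithelial-like, 0.230% in fibroblast-like, 0.211% in T or NK-like, 0.208% in monocyte-like, 0.205% in cDC2-like, 0.201% in cycling, 0.172% in C1q-high, 0.157% in cDC1-like, 0.145% in mature DC-like and 0.135% in Folr2 resident cells. Fibroblast-like cells had 0.353% when classed by their own marker scores, where 1197 cells (38.4%) lay near a limit. Values with 1 library left out have no test. Scaling moved all genes together: with total UMIs their median log2 fold was 0.11 for Spp1-high, 0.24 for cycling and 0.64 for epithelial-like cells. Low counts limit Egln3, P4ha2, Adm, Eno2 and Pgk1, for which differences were mostly not detectable at this depth.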

Other observations

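Neutrophil-like cells, 16 cells of replicate 2 with 39962 UMIs and 0 of replicate 1, gave 326 UMIs of the 35 genes, or 0.816%, close to the 0.826% of Spp1-high cells of that library. Hilpda had 48 UMIs there, 1201 CPM (exact Poisson 95% interval 886 to 1593), and Slc16a3 had 25 UMIs, 626 CPM (405 to 924). Slc2a1 had 8 UMIs, 200.2 CPM (86.4 to 394). These levels lie above those of the 11 classes of the fit in either library for Hilpda and Slc16a3, and within their range for Slc2a1. Of the 35 genes 16 were at 0, where 3 counts would be 75.1 CPM and the same exact interval reaches 92.3 CPM. With cells of 1 library there was no test.

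Ccr2 Fcgr4 Ms4a4c macrophage-like cells had 0.419% and 0.356% in replicate 1 and replicate 2, from 83 and 9 cells. Under 3 alternatives that gave this class 20 cells in each library, edgeR called 4 of 34 genes higher than in C1q-high cells and 0 lower at resolution 2.0, 3 of 33 higher and 0 lower with barcodes of at least 1000 UMIs, and 4 of 32 higher and 1 lower when cells were classed by marker scores. Slc16a3, Pfkp and Ndrg1 were higher in all 3, Mif in those at resolution 2.0 and by marker scores, and Pfkfb3 was the gene that was lower. The share of all genes called in these 3 fits was not counted, so the counts of members have no rate to be set against. B cell-like cells, 15 cells of replicate 2, had 0.180%, and endothelial-like cells, 17 and 9, had 0.350% and 0.280%.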
